A study of Caenorhabditis elegans with 40 samples.

Results

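The insulin-like peptide genes ins-39 and daf-28 and 7 genes of the insulin pathway that acts behind them (daf-2, age-1, pdk-1, akt-1, akt-2, daf-18 and daf-16) were followed in a transcriptome of Caenorhabditis elegans males and hermaphrodites. All 9 genes were found by name in the table of 11933 genes. ins-39 was chosen by its measured counts in these libraries, higher in males than in hermaphrodites at every stage, so its sex difference is given below as a description, without a test. The table holds 40 libraries in 10 groups, with 4 libraries for each sex at each of the larval stages L1, L2, L3 and L4 and in young adults (YA). Hermaphrodites were of the N2 strain. Males carried dpy-28(y1);him-8(e1489), where him-8 raises the share of males and dpy-28 kills most animals with a pair of X chromosomes at the temperature used. All animals of both sexes were grown at 25 °C. Because every male library was made from the double mutant and no hermaphrodite library was, an effect of sex and an effect of these mutations cannot be told apart here; him-8 lies on chromosome IV with daf-18, and dpy-28 on chromosome III with daf-2. Each library was made from a pool of whole worms, and nothing in the labels ties libraries of different groups to one culture, so that p-values measure the spread between these pools.

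Insulin-like peptides are secreted by neurons, intestine and other cells of the worm and bind the receptor DAF-2. An agonist starts a kinase cascade through the phosphoinositide 3-kinase AGE-1, the kinase PDK-1 and the kinases AKT-1 and AKT-2, which keeps the FOXO transcription factor DAF-16 out of the nucleus. The lipid phosphatase DAF-18 opposes AGE-1. The pathway is known for its control of dauer arrest, lifespan, stress resistance and fat storage, and the worm genome encodes a large family of insulin-like peptides of which some act as agonists and others as antagonists of the receptor.

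Libraries held between 1724365 and 14129759 unique molecular identifier (UMI) counts, with a median of 5616412. Levels are given as CPM, the count scaled to the effective library size, and they are compared between samples of one gene only. A gene is said to have passed the test when its adjusted p was at most 0.05 (edgeR quasi-likelihood test with Benjamini-Hochberg adjustment over 8110 genes), and to be called when it also changed by at least 1 on the log2 scale and had a mean normalized count of at least 5. Errors on log2 differences are standard errors. In whole animals, fewer cells of a type and less RNA per cell cannot be told apart. The YA hermaphrodite libraries fell into pairs: over all genes tested, repeats 1 and 4 correlated at 0.968 and repeats 2 and 3 at 0.978, against 0.862 to 0.882 between the pairs, while libraries within the other 9 groups correlated at 0.939 to 0.988. Summed germline markers were 1106 and 1497 CPM in repeats 1 and 4 and 4349 and 4333 CPM in repeats 2 and 3. Where a named YA value changed its call or its direction without repeats 1 and 4, an alternative chosen after seeing the data, the value without them is given beside it. The scaling of libraries mattered most in adults. With the scaling used, 1806 genes were called higher and 1767 lower in YA males, and 1119 higher and 1147 lower in L4 males. Without a low-count filter the YA counts were 2380 and 1163 and the median YA difference of the same genes moved up by 0.41, and with DESeq2 size factors the L4 counts were 1378 and 917 and the L4 and YA medians moved up by 0.16 and 0.19.

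ins-39 lies on chromosome X at 1343758 to 1344421 on the minus strand of the WBcel235 assembly, with exon 1 at 1344087 to 1344421 and exon 2 at 1343758 to 1344033. The study scanned the sequence around its start, the protein-coding part included, with binding matrices of transcription factors. The matches it listed for 4 of them are shown here, and whether they lie in regulatory or coding sequence was not looked at. MAB-3 and DMD-3 belong to the DM domain family of sex regulators, while CHE-1 and CEH-36 specify chemosensory neurons. The capitals mark the bases matched, 5′ to 3′ on the strand given. Plus and minus are the strand labels listed by that scan, and they need not be the strands of the chromosome.
mab-3, minus strand: GGTGTTGCAG
dmd-3, plus strand: ACTGTATC
ceh-36, plus strand: CTAATACC
che-1, minus strand: GGAAGCCTTA
che-1, minus strand: GGTAGCCTAT
che-1, plus strand: GAAAGCCCTA

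A match is a description of letters and not a bound site. Of the genes for these factors, mab-3 was called higher in males at every stage, with mean levels in males and hermaphrodites of 4.44 and 0.696 CPM at L1 and of 72.4 and 6.94 CPM at L3. Its highest male level was at L3, where ins-39 was already far below its L1 level. The whole-animal levels of the 2 genes thus did not run in parallel over the stages. Such levels do not show the cells that make each transcript, and the part of mab-3 in the ins-39 level was not tested. The gene dmd-3 had 9.34 CPM in males and 5.41 CPM in hermaphrodites at L3, ceh-36 stayed at or under 1.73 CPM in every group mean, and che-1 was not analysed here.

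The level of ins-39 was highest in L1 males and fell in males between L2 and L4, while it stayed low in hermaphrodites. In the 4 L1 male libraries it was 66.4, 74.8, 69.2 and 74.6 CPM, against 0.845, 1.27, 0.358 and 0.860 CPM in L1 hermaphrodites. In L2 males it was 53.0, 38.6, 40.8 and 56.7 CPM, against 1.24, 1.23, 0.951 and 1.42 CPM in hermaphrodites. The lowest male library of these stages was thus more than an order of magnitude above the highest hermaphrodite library of the same stage. In L3 males the level was 19.2, 17.4, 17.7 and 21.9 CPM, and in hermaphrodites 0.926, 1.93, 2.50 and 3.67 CPM. In L4 males it was 7.83, 7.70, 9.55 and 6.40 CPM and in YA males 4.92, 5.75, 5.71 and 6.33 CPM. No UMI of ins-39 was counted in any of the L4 or YA hermaphrodite libraries, so the sexes did not overlap at any stage.

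**Figure D1:**
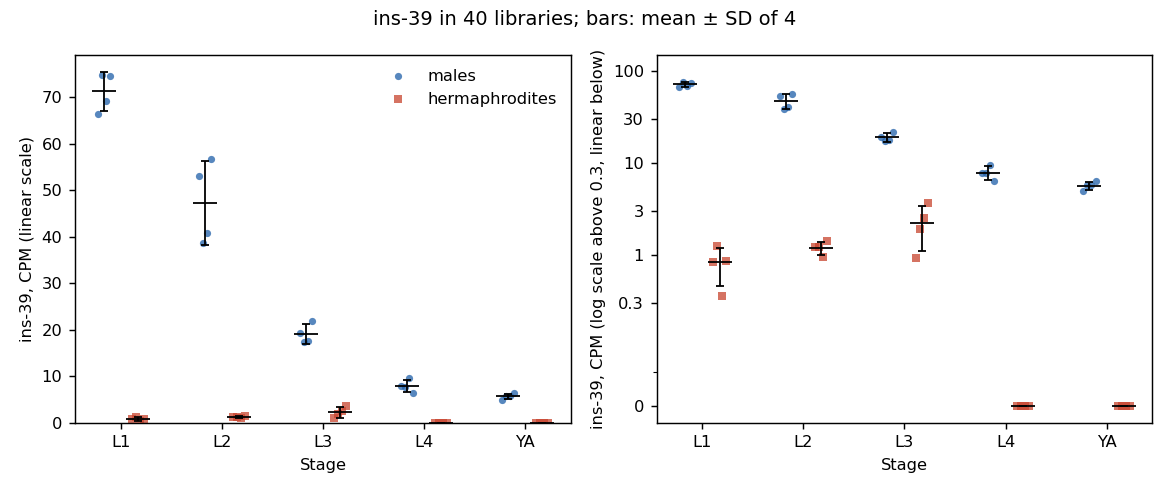
Level of ins-39 in each library (points, CPM on the y axis) by stage (x axis) and sex, on a linear axis (left) and on an axis that is logarithmic above 0.3 CPM (right), with bars for the mean and SD of 4 libraries. Males descend from a mean of 71.2 CPM at L1 to 5.68 CPM in young adults, while hermaphrodite means stay at or under 2.26 CPM and are 0 at L4 and YA.

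As group means, ins-39 was at 71.2 ± 4.16 CPM in L1 males (SD, n = 4) and 0.834 ± 0.374 CPM in L1 hermaphrodites, an 85.5-fold ratio. The ratio was 39.1 at L2, where the means were 47.3 ± 8.94 and 1.21 ± 0.191 CPM, and 8.45 at L3, where they were 19.1 ± 2.08 and 2.26 ± 1.15 CPM. Against the floor set by 3 counts over the 4 hermaphrodite libraries, which was 0.155 CPM at L4 and 0.236 CPM in YA, males were at least 50.7-fold higher at L4 (7.87 ± 1.29 CPM) and at least 24-fold higher in YA (5.68 ± 0.580 CPM). The ins-39 counts behind these values were unequal. Their group sums were 1189 UMIs in L1 males and 41 in L1 hermaphrodites, and 1014 and 29 at L2. They were 404 and 46 at L3, 131 and 0 at L4, and 138 and 0 in YA. Library depth ran the other way at L1, with median totals of 2803978.5 UMIs in males and 7107454.5 UMIs in hermaphrodites. The bounds of the last stages are lower than the L1 ratio because the male level is lower there, and they do not order the stages by sex difference. With each library left out in turn, the ratio stayed between 71.8 and 103.6 at L1, between 36.5 and 41.5 at L2 and between 7.06 and 10.7 at L3, and the bound between 34.8 and 53.8 at L4 and between 17.1 and 25.1 in YA.

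Ordered by mean level, the 5 male groups came first, from L1 to YA, and none overlapped its neighbour in the range of its libraries. Hermaphrodites at L3, L2 and L1 followed in that order and overlapped between neighbours, and L4 and YA hermaphrodites were at 0. Within males, ins-39 fell by 1.31 ± 0.23 on the log2 scale from L2 to L3 (adjusted p = 4.3e-05, edgeR quasi-likelihood test) and by 1.27 ± 0.24 from L3 to L4 (adjusted p = 8.6e-05). The step from L1 to L2 passed the test at -0.59 ± 0.22 (adjusted p = 0.0437), but without a low-count filter its adjusted p was 0.067, and it failed the test in most fits that left out 1 library, with changes of -0.50 to -0.64. The step from L4 to YA was -0.47 ± 0.25 (adjusted p = 0.16). Within hermaphrodites the steps were 0.47 ± 0.33 from L1 to L2 (adjusted p = 0.31) and 0.87 ± 0.33 from L2 to L3 (adjusted p = 0.075), and the latter became 1.13 with an adjusted p of 0.0173 without L3 repeat 1. From L3 to L4 the hermaphrodite level fell at least 14.5-fold, to no counted UMI, a value that the choice of the gene rests on and that was not tested. The hermaphrodite profile thus had its highest group mean at L3, the stage with the smallest ratio between the sexes. Other genes called higher in males at every stage shared this: mab-3 and srj-49 had their highest hermaphrodite means at L3 (6.94 and 5.29 CPM). C50H11.8 and unc-54 had theirs at L1 (2.93 and 815 CPM).

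Where neurons are a source of insulin-like peptides, the summed level of neuronal markers bears on ins-39. Summed pan-neuronal markers were lower in L1 males, at 857 to 1078 CPM, than in L1 hermaphrodites, at 1211 to 1974 CPM, opposite to ins-39. The 5 measured markers of ciliated neurons, of 12 listed, summed to 10.7 to 15.5 CPM in L1 males and 16 to 23.8 CPM in L1 hermaphrodites. At L4 that order was turned, with 10.3 to 14.2 CPM in males and 2.63 to 4.10 CPM in hermaphrodites. The other pan-neuronal sums overlapped between the sexes at L2 (518 to 591 CPM in males, 563 to 621 in hermaphrodites), at L3 (481 to 528 and 446 to 520) and in YA (541 to 603 and 353 to 1034), and were higher in males at L4 (575 to 689 and 453 to 520). Markers of the thermosensory AFD neurons, of which 3 of 5 listed were measured, overlapped at L1, with sums of 28.9 to 30.8 CPM in males and 26.1 to 37.8 CPM in hermaphrodites. They were apart at L4, at 6.58 to 8.16 and 3.39 to 4.44 CPM, and narrowly in YA, at 3.44 to 4.43 and 0.823 to 3.39 CPM, with gcy-23 called higher in males at both stages. The gcy-23 libraries of the sexes overlapped in YA. Its YA difference of 2.20 was 2.25 without YA hermaphrodite repeats 1 and 4 and no longer passed (adjusted p = 0.0781). The part of these cell markers in the level of ins-39 was not tested beyond these values.

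The genes whose log2 CPM ran most like that of ins-39 over the 40 libraries were C50H11.8 (Pearson r = 0.945), unc-54 (0.878), srj-49 (0.853), F55G7.1 (0.845) and str-222 (0.819). unc-54 encodes the major myosin heavy chain of body wall muscle, and srj-49 and str-222 belong to chemoreceptor gene families. These correlations are descriptions, because the libraries share 10 groups and any gene higher in males at all stages scores high. Besides ins-39, 8 of the 8110 genes were called higher in males at all 5 stages (C38D9.2, C50H11.8, ces-2, col-170, mab-3, srj-49, str-222 and unc-54). Another 3 were called higher in hermaphrodites at all 5. At L1 unc-54 was at 22743 to 35371 CPM in males and 345 to 1549 CPM in hermaphrodites. The other body wall muscle markers summed to 2001 to 3310 and 1875 to 3791 CPM there. Their sums overlapped at L2 too, and were lower in males at L3 and higher in males at L4 and YA. Within the 20 male libraries alone, r with ins-39 was 0.896 for C50H11.8 but 0.390 for unc-54, 0.412 for F55G7.1, -0.281 for srj-49 and -0.405 for str-222. C50H11.8, an uncharacterized gene on chromosome V, had 25.3 to 37.1 CPM in L1 males and 2.39 to 3.48 CPM in L1 hermaphrodites. Of the 5 genes it ran closest to ins-39 within males, although its YA male level of 10.1 to 17.4 CPM did not continue that decline.

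**Figure D2:**
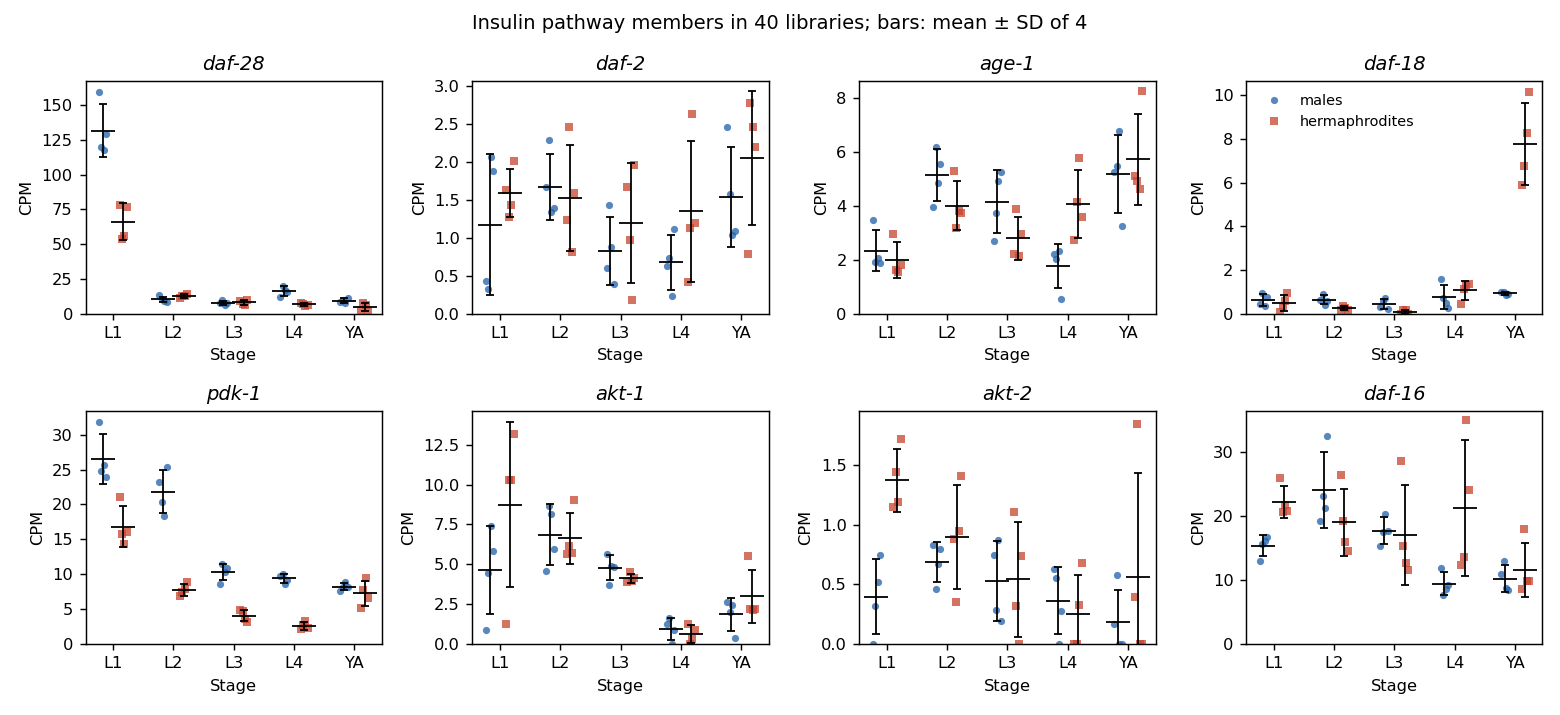
Levels of the 8 other pathway genes in each library (points, CPM) by stage and sex, with bars for the mean and SD of 4 libraries and a separate y axis for each gene. The daf-28 panel drops after L1, pdk-1 is higher in males from L1 to L4, and daf-18 stands out in YA hermaphrodites.

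Over the other members, 35 comparisons of males with hermaphrodites were tested, 7 genes at 5 stages. Of these, 10 passed the test, and 7 were called, 4 higher and 3 lower in males, while the libraries of the sexes did not overlap in 12 of the 35, beside 27.1% of such comparisons over all genes and stages. By stage, 2 of 7 members passed the test at L1, where 10.1% of all genes tested did so, and 1, 1, 4 and 2 did so from L2 to YA (0.814%, 10.9%, 41.2% and 55.4% of all genes). The called members were 0 at L1, where 6.23% of all genes were called, 1 of the L2 comparisons (0.691%), 1 of the L3 ones (8.55%), 4 of those at L4 (27.9%) and 1 in YA (44.1%). The call at L2, where few genes differed between the sexes, was pdk-1, and those at L4 were daf-28 and pdk-1, higher in males, and age-1 and daf-16, lower in males. Over all stages, 5 of the 7 were called at 1 or more, beside 59.1% of all genes.

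**Figure D3:**
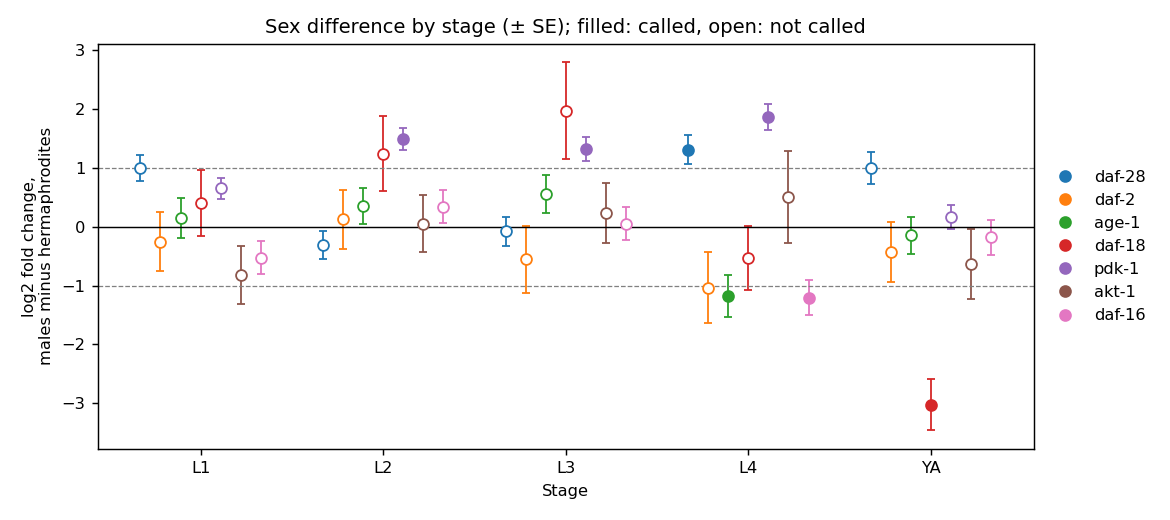
Male minus hermaphrodite log2 difference (y axis) of the 7 tested members at each stage (x axis), with bars for 1 SE and filled points for called differences. The pdk-1 values lie above 0 from L1 to L4, daf-28 lies above 0 at L1, L4 and YA, and daf-18 falls to -3.02 in YA.

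Among the ligands, daf-28, an agonist of DAF-2 made in sensory neurons that favours reproductive growth over dauer arrest, lies on chromosome V at 19815133 to 19816454. Its level was far higher at L1 than later in both sexes. L1 males had 159, 120, 118 and 130 CPM and L1 hermaphrodites 78.5, 53.5, 56.0 and 76.5 CPM, with no overlap. The difference was 0.99 ± 0.22 on the log2 scale (adjusted p = 0.0023), just under the fold threshold, and 1.00 with the repeat number as a block (adjusted p = 0.0101). From L1 to L2 daf-28 fell by 3.68 in males (adjusted p = 5.4e-14) and by 2.38 in hermaphrodites (adjusted p = 1.8e-10).

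At L2 and L3 the sexes overlapped in daf-28. The L2 levels were 8.53 to 13.1 CPM in males and 11.1 to 14.2 CPM in hermaphrodites, a difference of -0.31 ± 0.24 (adjusted p = 1), and the L3 difference was -0.08 ± 0.25 (adjusted p = 0.94). From L3 to L4 daf-28 rose by 1.08 in males (adjusted p = 5.6e-04), to 11.9, 20.2, 17.2 and 15.6 CPM, while L4 hermaphrodites had 7.38, 7.15, 5.6 and 6.32 CPM. The lowest L4 male library was above the highest hermaphrodite one, and the difference was called at 1.31 ± 0.25 (adjusted p = 7.8e-05). In YA, males had 8.70, 10.1, 7.44 and 11.4 CPM and hermaphrodites 2.74, 7.70, 6.13 and 2.19 CPM, a difference of 0.99 ± 0.27 (adjusted p = 0.0019). The low hermaphrodite values were those of repeats 1 and 4, and without them the YA difference was 0.45 (adjusted p = 0.151). Summed pan-neuronal markers split the same way, with 353 and 388 CPM in repeats 1 and 4 and 1002 and 1034 CPM in repeats 2 and 3. Not every marker in that sum did so: rab-3 was at 7.73 ± 1.23 CPM (SD) over the YA hermaphrodite libraries, and it was called higher in YA males (2.99). The part of these markers in the daf-28 levels was not tested. The male step from L4 to YA, a fall of 0.79 (adjusted p = 0.0095), no longer passed without L4 repeat 2 (adjusted p = 0.201).

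DAF-2 is the single insulin/IGF-like receptor tyrosine kinase of the worm. Its gene, on chromosome III, was counted at a low level in every group, from 0.178 to 2.77 CPM over the 40 libraries. The libraries of the sexes overlapped at every stage, no sex comparison passed the test, and the interaction of sex and stage had an adjusted p of 0.71. In L1 males repeats 1 and 2 had 0.431 and 0.318 CPM and repeats 3 and 4 had 2.06 and 1.88 CPM, so the spread within a group was as wide as most differences between groups. At L4 the male libraries ranged from 0.233 to 1.11 CPM and the hermaphrodite ones from 0.422 to 2.64 CPM (adjusted p = 0.17), which at this depth does not show that the sexes were alike.

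AGE-1, the catalytic subunit of phosphoinositide 3-kinase, makes the lipid signal that recruits the kinases downstream. The level of age-1 rose from L1 to L2 in males by 1.18 ± 0.34 (adjusted p = 0.0078) and in hermaphrodites by 0.98 ± 0.31 (adjusted p = 0.010), of which the latter did not pass without L2 repeat 1 (adjusted p = 0.0529). At L4 the sexes parted: males had 2.19, 2.02, 2.33 and 0.557 CPM and hermaphrodites 2.74, 4.14, 5.77 and 3.59 CPM, without overlap. The difference was called at -1.17 ± 0.35 (adjusted p = 0.0079), and it was -0.93 (adjusted p = 0.0568) without hermaphrodite L4 repeat 3. Males fell by 1.19 from L3 to L4 (adjusted p = 0.0067) and rose by 1.52 from L4 to YA (adjusted p = 6.6e-04), where the sexes again overlapped at 3.26 to 6.75 CPM in males and 4.60 to 8.23 CPM in hermaphrodites.

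DAF-18 removes the lipid that AGE-1 makes and so counteracts the pathway. Its gene, on chromosome IV at 420011 to 425177, had at most 1.57 CPM in any library outside the YA hermaphrodites. In YA hermaphrodites daf-18 was at 5.88, 6.77, 8.28 and 10.2 CPM, against 0.984, 1.01, 0.865 and 0.905 CPM in YA males. All 4 hermaphrodite libraries were above every male library, and the difference was -3.02 ± 0.44 (adjusted p = 2.1e-07), with -2.96 when repeats 1 and 4 were left out. It was the 1 member called in YA.

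In hermaphrodites daf-18 rose by 2.84 ± 0.44 from L4 to YA (adjusted p = 1.2e-06), after a rise from L3 to L4 (adjusted p = 4.5e-04) that started from only 2 UMIs at L3, a pooled level of 0.0939 CPM with a 95% Poisson interval of 0.0114 to 0.339 CPM that covers counting error only. Beside it, summed oocyte and eggshell markers were 3254 to 8511 CPM in YA hermaphrodites and 262 to 320 CPM in YA males. They were highest in repeats 2 and 3, at 8511 and 8484 CPM, while daf-18 was highest in repeats 3 and 4, and the part of oocytes and embryos in the daf-18 level was not tested.

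PDK-1, the kinase that activates both AKT proteins, showed the most persistent sex difference after ins-39. The pdk-1 levels at L2 were 23.3, 20.3, 18.4 and 25.4 CPM in males and 6.88, 7.37, 7.88 and 8.84 CPM in hermaphrodites. At L3 they were 8.65, 11.4, 10.3 and 10.9 CPM against 4.81, 4.67, 3.57 and 3.18 CPM. At L4 they were 9.71, 10.1, 8.62 and 9.19 CPM against 2.11, 2.63, 3.30 and 2.22 CPM. At each of these stages every male library exceeded every hermaphrodite library.

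The pdk-1 ratio of means was 2.82 at L2, 2.54 at L3 and 3.66 at L4, with log2 differences of 1.49 ± 0.19 (adjusted p = 1.39e-06), 1.33 ± 0.20 (adjusted p = 6.16e-06) and 1.86 ± 0.22 (adjusted p = 1.42e-08), all called. At L1 males had 31.9, 24.8, 25.6 and 24 CPM and hermaphrodites 21.1, 15.8, 14.3 and 16 CPM, which did not overlap and differed by 0.65 ± 0.18 (adjusted p = 0.0156). With the repeat number as a block the L1 difference was 0.67 (adjusted p = 0.0370). In the fit without the block it did not pass when male repeat 1 (adjusted p = 0.0666), hermaphrodite repeat 2 (adjusted p = 0.0567) or hermaphrodite repeat 3 (adjusted p = 0.0626) was left out. In YA males had 7.55, 8.19, 8.82 and 8.14 CPM and hermaphrodites 5.09, 7.70, 9.51 and 6.58 CPM, which overlapped (0.17 ± 0.20, adjusted p = 0.495). In counts thinned to the depth of the smallest library the L2 difference was 1.09 (adjusted p = 0.839) and the L4 one 1.30 (adjusted p = 0.061), neither of which passed. The YA value moved with the scaling: without male L4 repeat 2 it was 0.50 (adjusted p = 0.0335) while the median of all genes moved up by 0.31.

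The sexes reached these levels by different courses. In hermaphrodites pdk-1 fell by 1.12 from L1 to L2 (adjusted p = 7.0e-06), by 0.92 from L2 to L3 (adjusted p = 0.0013) and by 0.66 from L3 to L4 (adjusted p = 0.026), then rose by 1.49 to YA (adjusted p = 7.1e-07). The L3 to L4 fall did not pass without L3 repeat 1 or 2 or L4 repeat 1 or 4 (adjusted p of 0.0825 to 0.103). In males the one step that passed the test was a fall of 1.08 from L2 to L3 (adjusted p = 2.4e-05).

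pdk-1 lies on chromosome X at 1321344 to 1327986 on the plus strand, 15771 bases from ins-39, and 0 genes of the table lie between them. Over the 20 male libraries the log2 CPM of pdk-1 and ins-39 correlated at 0.942, over the 20 hermaphrodite libraries at 0.215 and over all 40 at 0.709, which again are descriptions over libraries that share stages. Both genes fell between L2 and L3 in males, by 1.31 for ins-39 and 1.08 for pdk-1, while from L3 to L4 ins-39 fell by 1.27 and pdk-1 stood at -0.13 (adjusted p = 0.65). Taken from L1 to YA, the median male minus hermaphrodite log2 differences of the 1072 X-linked genes tested were -0.16, -0.01, 0.03, 0.07 and 0.44, and those of autosomal genes -0.14, 0, 0.02, 0.04 and -0.10. The pdk-1 differences of L2, L3 and L4 were thus larger than the median of its chromosome, while its YA difference was below it.

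**Figure D4:**
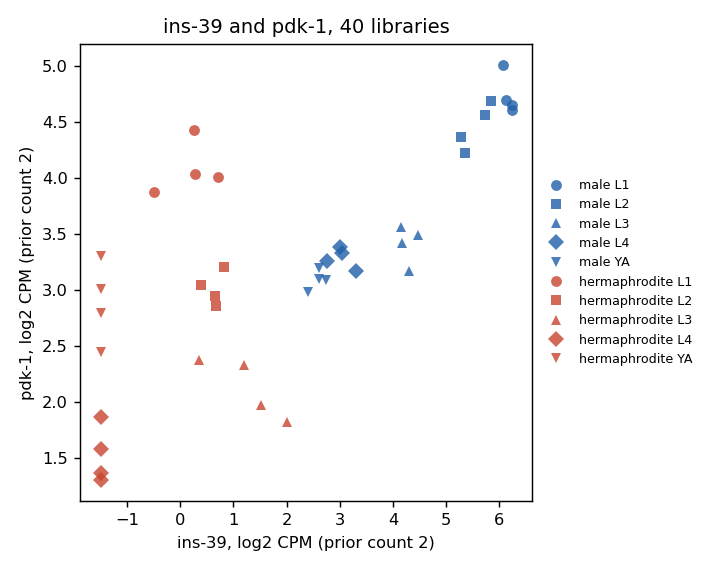
Log2 CPM of pdk-1 (y axis) against that of ins-39 (x axis), both with a prior count of 2, in the 40 libraries by sex (colour) and stage (shape). Male libraries run from high values of both genes at L1 to low values in adults, and hermaphrodite libraries sit to the left at all stages.

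AKT-1 and AKT-2 are the kinases that phosphorylate DAF-16. No sex comparison of akt-1 passed the test at any stage, with an interaction adjusted p of 0.50. In both sexes akt-1 fell from L3 to L4, by 2.31 ± 0.62 in males (adjusted p = 0.0031) and 2.59 ± 0.65 in hermaphrodites (adjusted p = 0.0017). The L3 libraries were at 3.71 to 5.67 CPM in males and 3.89 to 4.51 CPM in hermaphrodites, and the L4 ones at 0 to 1.65 and 0 to 1.27 CPM. A rise of 2.1 from L4 to YA in hermaphrodites (adjusted p = 0.011) no longer passed without YA repeats 1 and 4 (adjusted p = 0.108) or without repeat 1 alone (adjusted p = 0.060), which had 5.48 CPM beside 2.15 to 2.19 CPM in the other repeats. Repeat 1 was also low at L1 in both sexes, at 0.862 CPM beside 4.46 to 7.40 CPM in males and 1.27 beside 10.3 to 13.2 CPM in hermaphrodites. akt-2, on chromosome X, was under the low-count filter and was not tested, with 5 to 64 UMIs a group. Its levels were 1.15 to 1.72 CPM in L1 hermaphrodites and 0 to 0.750 CPM in L1 males, where the libraries did not overlap.

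DAF-16 is the FOXO factor on which the pathway converges. Levels of daf-16, on chromosome I, overlapped between the sexes at L2, L3 and YA. At L4 males had 11.9, 7.70, 8.62 and 9.19 CPM and hermaphrodites 12.2, 13.5, 34.9 and 24.1 CPM, a called difference of -1.21 ± 0.29 (adjusted p = 0.0012). The highest male library lay just under the lowest hermaphrodite one, and without hermaphrodite L4 repeat 3 the difference was -0.85 (adjusted p = 0.0237), under the fold threshold. At L1 males had 12.9 to 16.7 CPM and hermaphrodites 20.5 to 25.9 CPM, which did not overlap but did not pass the test (-0.53 ± 0.28, adjusted p = 0.26). Males fell by 0.92 from L3 to L4 (adjusted p = 0.0116; 0.0540 without male L4 repeat 2). Hermaphrodites fell by 0.89 from L4 to YA (adjusted p = 0.0097), a step that did not pass without L4 repeat 3 (adjusted p = 0.115) or without YA repeats 1 and 4 (adjusted p = 0.107).

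Counted over stage steps, 2 of 8 members, ins-39 included, were called from L1 to L2 in males, where 19.1% of all genes were called, 2 from L2 to L3 (12.9%), 4 from L3 to L4 (25.5%) and 1 from L4 to YA (22.5%). In hermaphrodites the counts among the 7 members besides ins-39 were 2 (30.1%), 0 (10.3%), 2 (23.6%) and 3 (44.5%). The called falls were those of daf-28 from L1 to L2 in both sexes, pdk-1 from L1 to L2 in hermaphrodites, ins-39 and pdk-1 from L2 to L3 in males, akt-1 from L3 to L4 in both sexes, and ins-39 and age-1 from L3 to L4 in males. The called rises were those of age-1 from L1 to L2 and from L4 to YA and daf-28 from L3 to L4 in males, daf-18 from L3 to L4 in hermaphrodites, and akt-1, daf-18 and pdk-1 from L4 to YA in hermaphrodites. The sex difference varied with stage in 5 of the 7 members tested for the interaction, beside 53.1% of all genes. The F values were 12.9 for daf-18 (adjusted p = 9.5e-06), 11.1 for pdk-1 (adjusted p = 3.5e-05), 8.72 for daf-28 (adjusted p = 2.2e-04), 4.34 for daf-16 (adjusted p = 0.0134) and 3.91 for age-1 (adjusted p = 0.0208). The daf-16 interaction did not pass without hermaphrodite L4 repeat 3 (adjusted p = 0.0625), and neither did that of age-1 without that library or without male L4 repeat 2 or 4.

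The remaining insulin-like peptides differed between the sexes at other stages and in both directions. Of 40 listed, 18 were in the table and 16 were tested, and the 15 besides ins-39 include daf-28. At L1 none of the 15 was called higher in males and 4 were called lower, namely ins-17 (-1.56), ins-24 (-1.93), ins-26 (-1.08) and ins-29 (-1.88), beside backgrounds of 3.3% higher and 2.92% lower. The ins-17 libraries were at 39.1 to 50.3 CPM in L1 males and 93.9 to 175 CPM in L1 hermaphrodites, and the ins-26 libraries at 25.7 to 32.5 and 45.5 to 72.0 CPM, so neither overlapped. The L1 hermaphrodites were themselves uneven: ins-24 was at 56.2 and 59.4 CPM in repeats 1 and 2 and at 25.2 and 23.9 CPM in repeats 3 and 4, all above the 8.95 to 12.9 CPM of L1 males. The L1 difference of ins-29 did not pass without hermaphrodite L1 repeat 2 (adjusted p = 0.0832) or with the stage fitted alone (adjusted p = 0.108). At L2 the one call among them was ins-26, lower at -1.15, beside 0.481% higher and 0.21% lower, and at L3 it was ins-37, higher at 1.48, beside 7.62% and 0.925%. The ins-26 difference at L2 did not pass with the repeat number as a block (adjusted p = 0.121) or, among other fits, without male L2 repeat 1 (adjusted p = 0.147). At L4 daf-28, ins-30 (1.17), ins-31 (4.75) and ins-6 (2.14) were called higher in males and ins-4 lower (-1.58), beside 13.8% and 14.1% of all genes. In YA 7 were called higher (ins-17, ins-24, ins-30, ins-31, ins-37, ins-4 and ins-6) and ins-29 lower, beside 22.3% and 21.8%. Without YA hermaphrodite repeats 1 and 4, ins-29 was at -0.68 (adjusted p = 0.209) and ins-6 at 1.23 (adjusted p = 0.076), and neither passed, while ins-30 was at 0.84, under the fold threshold. ins-17 then moved from 1.47 to 2.96, ins-24 from 1.74 to 4.43, ins-31 from 2.60 to 8.22 and ins-4 from 1.40 to 2.59. The YA hermaphrodite libraries held 13 UMIs of ins-31 in all (0 to 7 a library) and 9 of ins-4 (0 to 5). The L4 ones held 1 UMI of ins-31. At such counts the direction of a fitted difference can be read but its size is not well measured. Other fits also lost calls. The YA difference of ins-4 did not pass without hermaphrodite YA repeat 3 (adjusted p = 0.144). With DESeq2 ins-31 did not pass at L4 (adjusted p = 0.0545) or in YA (adjusted p = 0.261). With each stage fitted alone neither ins-17 (adjusted p = 0.0703) nor ins-24 (adjusted p = 0.107) passed in YA. Taken from L1 to YA, the median differences of the 15 were -0.86, -0.27, 0, 0.24 and 1.27, and those of all genes -0.14, 0, 0.03, 0.05 and 0.

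**Figure D5:**
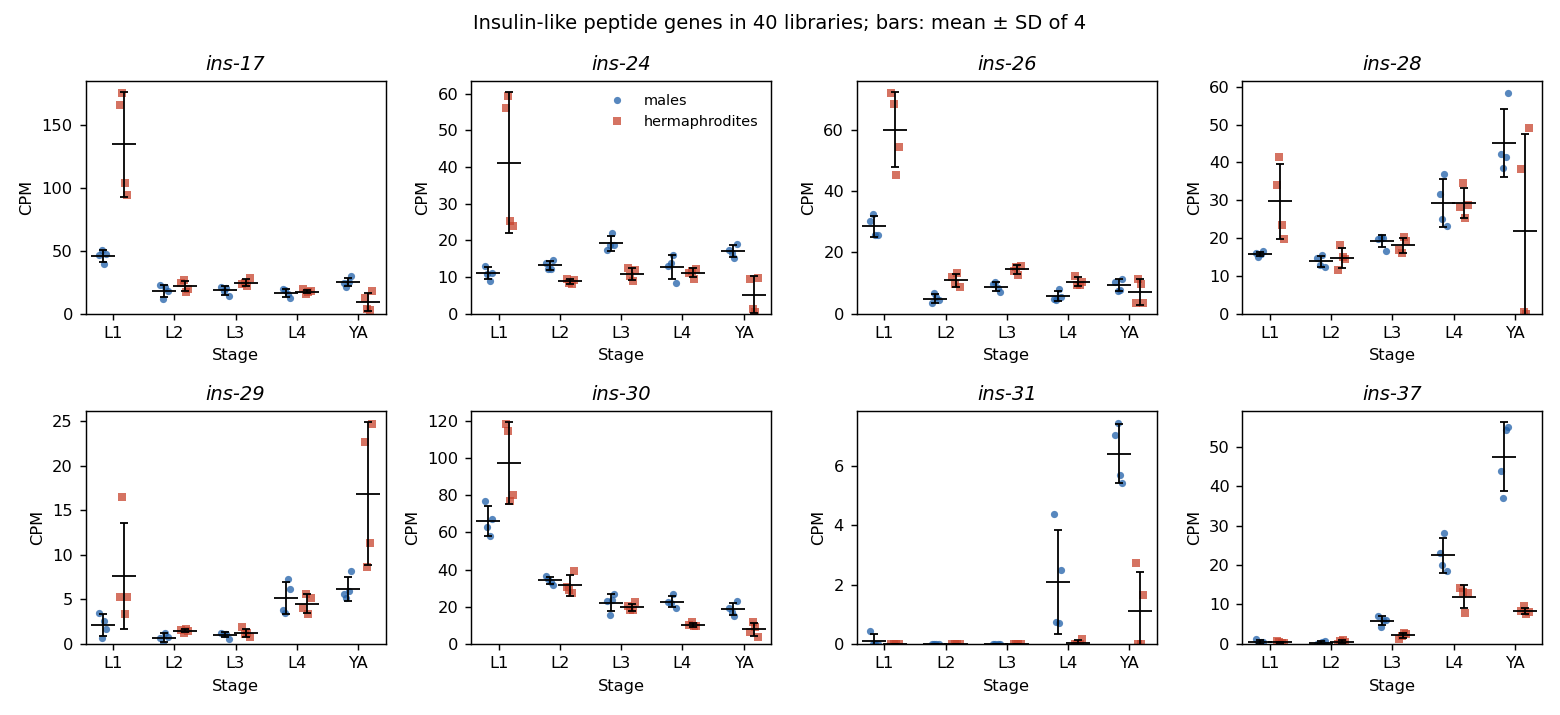
Levels of 8 further insulin-like peptide genes in each library (points, CPM) by stage and sex, with bars for the mean and SD of 4 libraries and a separate y axis for each gene. ins-37 climbs in males to 36.9 to 55.0 CPM in YA, and the 4 YA hermaphrodite libraries of ins-28, ins-24 and ins-17 split into a higher and a lower pair.

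The peptides took several courses over the stages. ins-5 also declined in males, with mean levels of 37.7 ± 5.91, 27.2 ± 3.59, 18.4 ± 2.61, 5.73 ± 1.57 and 4.01 ± 0.893 CPM from L1 to YA (SD, n = 4), and was called lower from L3 to L4 (-1.69, adjusted p = 8.1e-08). In hermaphrodites it was called lower from L2 to L3 (-1.02, adjusted p = 3.3e-04) and from L3 to L4 (-1.75, adjusted p = 4.2e-08), and no sex comparison of it passed the test. ins-37 was at or under 1.29 CPM in every L1 and L2 library and rose to 43.8, 36.9, 54.3 and 55.0 CPM in YA males, against 8.23, 9.55, 7.67 and 7.96 CPM in YA hermaphrodites, a difference of 2.50 that was called. ins-31 had no UMI in any L2 or L3 library and 5.43 to 7.47 CPM in YA males. From L1 to L2, daf-28 aside, 8 of 14 peptides besides ins-39 were called lower in hermaphrodites and 3 of 14 in males, beside 15.4% and 8.13% of all genes called lower. Summed neuronal markers were also lower in L1 males than in L1 hermaphrodites, as given beside ins-39, and their part in the L1 differences was not tested.

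In YA hermaphrodites several peptides split by repeat. ins-28 was at 38.4 and 49.1 CPM in repeats 1 and 4 but at 0.308 and 0 CPM in repeats 2 and 3, with YA males at 42.2, 38.6, 41.5 and 58.5 CPM. Its sex difference was 1.04 (adjusted p = 0.097) with all libraries and 8.02 (adjusted p = 3.3e-16) without repeats 1 and 4. The latter was fitted against hermaphrodite libraries at 0.308 and 0 CPM, so its size is not well measured. ins-17 was at 12.1 and 17.6 against 3.69 and 2.76 CPM in the same pairs, and ins-24 at 9.40 and 9.60 against 1.23 and 0.307 CPM. In all 3 genes repeats 1 and 4, the pair with fewer germline transcripts, were nearer to the males. daf-28 went the other way, with its low values in repeats 1 and 4, as did the summed pan-neuronal markers. The part of germline or neurons in these splits was not tested.

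Genes around the pathway, taken from background knowledge, were also counted. Of 29 further pathway genes 21 were tested, and 7 were called at 1 or more stages, beside 59.1% of all genes. All 7 were lower in males, and none was called before L4. In YA these were led by the arginine methyltransferase gene prmt-1 (-2.16), eak-7 (-1.52) and the TORC2 component rict-1 (-2.50), and at L4 by the heat shock factor gene hsf-1 (-1.80). Of the oocyte and eggshell markers 8 of 8 tested were called lower in males at L4 and again in YA, and of the germline markers 3 of 9 and 7 of 9. Of all genes 14.1% were called lower at L4 and 21.8% in YA. In YA hermaphrodites rict-1 was at 28.2 and 43.3 CPM in repeats 1 and 4 and at 170.6 and 169.6 CPM in repeats 2 and 3, and prmt-1 at 374 and 584 CPM and at 1302 and 1734 CPM, the same split as the germline and oocyte markers. The part of these cells in the 7 calls was not tested. Of 8 tested genes for peptide processing and release, which prepare peptide hormones for secretion, 5 were called at 1 or more stages, beside the same 59.1%. Called higher in YA males were ida-1 (2.14), the carboxypeptidase gene egl-21 (1.79) and the proprotein convertase gene egl-3 (2.82). The convertase gene aex-5 was called lower in L4 males (-1.96). egl-3 had mean levels of 129 CPM in YA males and 18.2 CPM in YA hermaphrodites.

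Of 13 tested genes known to be raised by DAF-16, 9 were called at 1 or more stages, in both directions. In YA males sip-1 was lower (-2.21) and icl-1 (1.40), ftn-1 (2.92) and dod-6 (1.52) were higher. The metallothionein gene mtl-1 was lower in L1 males (-2.70, at 5.44 to 16.8 CPM against 18.9 to 123 CPM). In YA males mtl-1 was at 6.89 to 8.32 CPM and in YA hermaphrodites at 12.9, 0.616, 0.613 and 131 CPM, which overlapped, and its difference of -2.24 turned to 3.61 without repeats 1 and 4. The ftn-1 difference moved to 8.94 without them, and that of egl-3, named above, from 2.82 to 4.14. The mean of ftn-1 over the YA hermaphrodite libraries was only 1.32 ± 1.94 CPM (SD), so the size of its difference is not well measured. Of 4 tested genes known to be lowered by DAF-16, 3 were called lower in L4 males, beside 14.1% of all genes: the yolk protein genes vit-5 (-11.2) and vit-2 (-10.2), which are made in the hermaphrodite intestine, and dod-19 (-2.39). In YA vit-5 (-5.34) and vit-2 (-6.46) were again called lower in males. dod-19 went the other way in YA, at 0.92 (adjusted p = 0.0245), and it was called higher in males, at 2.48, without repeats 1 and 4. Of 5 tested genes of the TGF-beta and steroid routes to dauer, daf-7, a ligand of sensory neurons, was higher in YA males (2.31), its receptor gene daf-1 was lower (-1.41), and daf-5 was higher in L4 males (1.46). Beside them stands the 59.1% of all genes called at 1 or more stages.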

How the data were processed

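RNA of pools of whole worms was sequenced as 3′ tags with UMIs (MARS-seq). Per the study's methods and processing notes, the authors used cutadapt for trimming, STAR 2.4.2a for alignment (assembly WBcel235) and HTSeq-count for UMI counts per gene. The deposited UMI counts were used. The deposited normalized values, a signal made by the authors with DESeq2, and their log2 values, variance-stabilized or batch-adjusted with ComBat, were not tested: after ComBat a count of 0 took a value set by the repeat number alone in 1536 of 1536 genes checked. Columns with the authors' fold changes and p-values were not used.

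Genes passing filterByExpr (minimum count 10, minimum total 15) numbered 8110 of 11933. One model of 10 groups over 40 libraries was fitted with edgeR 4.0.16 (TMM, quasi-likelihood F test) in R 4.3.3, with contrasts for sex at each stage, steps between stages within a sex, and their interaction. Calls took the thresholds of the study's methods: adjusted p up to 0.05, log2 change from 1 upward, mean normalized count from 5 upward. Log2 CPM for correlations used a prior count of 2. Intervals at the 95% level and floors of 3 counts cover counting error only. The members and gene lists were chosen with earlier results of these data known. Every member is named; of the peptides, those called; of other lists, up to 4 called genes with the smallest p at L1, L4 or YA. Exceptions (ins-5, ins-28, mtl-1 and the factor genes) were named after their values were seen. Same-numbered libraries of the sexes deviated together in all 4 pairs only at L1 (correlations 0.136 to 0.587). The repeat number was thus read as possible pairing of the sexes there alone. The main fit did not use it at any stage, and the replicate block was fitted for all comparisons as an alternative. Alternatives were DESeq2 1.42.0 size factors and test, no low-count filter, counts thinned to equal depth, each stage fitted alone, a replicate block, and each library left out.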

Additional observations from a re-analysis of the deposited data

Results flagged for a closer look

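Among the 90 groups of 4 libraries looked at (9 genes in 10 groups), 5 had a library far from the other 3, and chance gives about 1 in 20. These were age-1 in L1 males, where repeat 1 had 3.45 CPM beside 1.88 to 2.06 CPM, age-1 in YA hermaphrodites, where repeat 4 had 8.23 CPM beside 4.60 to 5.09 CPM, akt-1 in L2 hermaphrodites, where repeat 4 had 9.02 CPM beside 5.65 to 6.14 CPM, akt-1 in YA hermaphrodites, where repeat 1 had 5.48 CPM beside 2.15 to 2.19 CPM, and daf-16 in YA hermaphrodites, where repeat 2 had 17.9 CPM beside 8.62 to 9.88 CPM.

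The sex difference varied between stages, by the interaction test of edgeR, for daf-18 (F = 12.9), pdk-1 (F = 11.1), daf-28 (F = 8.72), daf-16 (F = 4.34) and age-1 (F = 3.91).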

How the results depend on the processing

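The number of members called between the sexes was 1 instead of 0 at L1, daf-28 being added, under DESeq2 size factors, without a low-count filter, under DESeq2, with the replicate block and with each stage fitted alone, and 2 instead of 1 in YA under DESeq2 size factors, without the filter, under DESeq2 and with the replicate block. Counts thinned to one depth gave 0 called at L2, 2 at L4 and 0 in YA, 1 for the male steps L1 to L2 and L2 to L3, 1, 1, 0 and 0 for the 4 hermaphrodite steps, 1 passing interaction, and 5 instead of 10 insulin-like peptides besides ins-39 called at 1 or more stages. The calls of pdk-1 at L2 and L4 were among those lost. The YA bound for ins-39 was 27.6 with DESeq2 size factors and 31.2 with plain library totals, and with 1 library left out it ranged from 17.1 to 25.1, that of L4 from 34.8 to 53.8. The hermaphrodite L3 to L4 change of pdk-1 turned to 0.44 (adjusted p = 0.656) in thinned counts, and that of ins-31 from L4 to YA to -1.76 (adjusted p = 0.570) without YA hermaphrodite repeats 1 and 4. The cause was not tested. The split of male L4 to YA calls, 813 higher and 1011 lower, became 1063 and 820 without the filter.

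With each library left out in turn, the members called between the sexes ranged from 0 to 1 at L1, 1 to 1 at L2 and L3, 2 to 4 at L4 (2 without hermaphrodite L4 repeat 3) and 1 to 2 in YA. For the male steps the ranges were 2 to 2, 2 to 2, 3 to 5 and 1 to 1, and for the hermaphrodite steps 2 to 3, 0 to 1, 2 to 2 and 2 to 4, and 3 to 5 members passed the interaction. Peptides besides ins-39 called at 1 or more stages ranged from 9 to 11, other pathway genes from 6 to 9, processing genes from 5 to 6, genes raised by DAF-16 from 9 to 10, genes lowered by it 3 to 3, and dauer genes from 3 to 4.

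The replicate block changed no member's side of the adjusted p at L1. At the other stages the same-numbered libraries of the sexes did not all deviate together. Between L2 and L3 hermaphrodites the same-numbered libraries correlated at 0.0117 to 0.510, and the ComBat values of a count of 0 followed the repeat number. Whether the numbers mark a batch was not tested. Low counts limit daf-2, akt-1, akt-2 and daf-18 before YA, where a difference that did not pass was not detected, which does not show that the sexes were alike.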
